A study of Mus musculus with 10 samples.

Results

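Transcripts of the immunoglobulin heavy and light chain genes were examined in pancreatic tumours of the KPF mouse model of pancreatic cancer. The genes were chosen by symbol and by summed count, as the rows of the deposited count table whose symbols begin with Igh, Igk, Iglv, Iglc or Iglj, without Ighmbp2, and whose counts summed to 10 or more over the 10 tumours. This gave 166 of 55487 rows. They were 79 heavy chain variable (V) genes, 73 kappa V genes of which 1 is annotated as a pseudogene, 3 lambda V genes, 7 heavy chain constant genes, the kappa constant gene Igkc and 3 lambda constant genes. The other 229 immunoglobulin rows stayed below the limit, and 183 of all 395 immunoglobulin rows held no read. Just inside the limit stood Ighv1-36 with a summed count of 10, Ighv1-12 with 10.02, and Ighv1-63 and Igkv4-77 with 11 each. Just outside it stood Ighv1-43 with 7, and Ighe, Ighv8-5 and Ighv12-3 with 8 each. All 20 diversity (D) segment rows were at 0, and no joining (J) segment row summed to more than 1.

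The 5 tumours labelled Grem1-deleted came from mice dosed daily with 100 mg/kg tamoxifen over 5 days, beginning when they were 5 weeks old. The 5 tumours labelled Grem1 wild-type came from mice given peanut oil on the same schedule. All animals carried the KPF background on C57BL/6J and were used at 6 to 12 weeks of age, and the labels spell out neither KPF nor the Cre line. Genotype and tamoxifen went together, so the effects of the deletion and of the drug cannot be told apart. Polyadenylated RNA was sequenced from what the labels describe as bulk tumour tissue, although their extraction text mentions sorted cells. In bulk RNA, fewer cells of a type and less RNA per cell cannot be told apart.

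An antibody is built from paired heavy and light chains. In each developing B cell 1 heavy V segment is joined to D and J segments. Likewise 1 kappa or lambda V segment is joined to a J segment. The cells of a clone share their V genes, but unrelated clones can use the same V gene. The heavy chain constant gene sets the isotype: Ighm and Ighd are used by B cells that have not switched, while the Ighg genes, Ighe and Igha are used after class switching. Plasma cells carry far more immunoglobulin RNA than resting B cells, and those of the gut and other mucosae mostly use Igha.

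The germline V exons that led the variable gene reads of wild-type tumours 3 and 4 are shown because no other tumour gave so large a share to 1 gene. Each line holds the opening 300 bases of the V exon, 5′ to 3′, from GENCODE M21 transcripts on GRCm38, and capitals mark bases that differ from the closest relative. Igkv1-117 (chr6:68121515-68121814, plus strand) and Igkv1-110 (chr6:68270955-68271254, plus strand) are set against each other. They differed at 10 of these bases and were 96.8% identical over the whole exon. Ighv1-5 (chr12:114513335-114513634, minus strand) is set against Ighv1-7, from which it differed at 42 bases. Igkv4-53 (chr6:69648833-69649132, minus strand) is set against Igkv4-79, with 25 differing bases, and Ighv1-69 (chr12:115623166-115623465, minus strand) against Ighv1-59, with 8.
Igkv1-117: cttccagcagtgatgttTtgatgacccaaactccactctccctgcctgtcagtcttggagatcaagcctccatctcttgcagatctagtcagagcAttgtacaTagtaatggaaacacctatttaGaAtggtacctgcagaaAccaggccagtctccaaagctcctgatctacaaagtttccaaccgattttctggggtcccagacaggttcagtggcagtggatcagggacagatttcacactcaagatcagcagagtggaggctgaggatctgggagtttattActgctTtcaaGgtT
Igkv1-110: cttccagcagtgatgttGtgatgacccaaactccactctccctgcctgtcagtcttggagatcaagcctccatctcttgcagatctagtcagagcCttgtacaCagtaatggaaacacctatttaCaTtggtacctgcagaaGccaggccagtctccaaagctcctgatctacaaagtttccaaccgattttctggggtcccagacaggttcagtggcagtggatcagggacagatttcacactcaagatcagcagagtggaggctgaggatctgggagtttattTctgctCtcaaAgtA
Ighv1-5: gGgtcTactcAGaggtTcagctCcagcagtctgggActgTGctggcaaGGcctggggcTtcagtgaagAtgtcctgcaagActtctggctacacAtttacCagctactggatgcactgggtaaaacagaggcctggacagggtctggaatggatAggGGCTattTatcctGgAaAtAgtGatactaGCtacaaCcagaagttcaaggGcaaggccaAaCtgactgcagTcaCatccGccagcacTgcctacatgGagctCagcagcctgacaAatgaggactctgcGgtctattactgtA
Igkv4-53: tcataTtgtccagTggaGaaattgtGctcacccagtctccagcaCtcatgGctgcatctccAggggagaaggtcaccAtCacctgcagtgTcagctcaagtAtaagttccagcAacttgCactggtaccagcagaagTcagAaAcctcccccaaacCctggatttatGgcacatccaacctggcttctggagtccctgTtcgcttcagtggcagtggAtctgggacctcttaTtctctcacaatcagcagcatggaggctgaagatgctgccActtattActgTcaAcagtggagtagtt
Ighv1-69: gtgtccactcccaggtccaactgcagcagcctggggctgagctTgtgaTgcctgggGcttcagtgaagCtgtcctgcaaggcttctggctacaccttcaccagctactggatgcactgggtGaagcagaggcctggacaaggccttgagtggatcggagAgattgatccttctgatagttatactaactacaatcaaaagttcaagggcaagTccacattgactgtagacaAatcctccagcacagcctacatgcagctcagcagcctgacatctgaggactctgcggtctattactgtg
These are germline sequences of the reference strain. The deposited files hold counts per gene, so somatic mutations, joints and the pairing of heavy with light chains were not analysed here.

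Total estimated counts ran from 10159891 to 18571519 per library, and immunoglobulin genes took 796 to 37641 of them, or 0.00783% to 0.314%. Grem1 itself, the targeted gene, was not lower in the tumours labelled deleted (log2 fold change 1.08, SE 0.79, adjusted p = 0.761 in edgeR's quasi-likelihood test), so these tumours are named by their label. The labels call the samples biological replicates and name no batch. Ductal epithelium was present in every library, with 5 marker genes at 1279 to 3399 CPM in tumours labelled deleted and 3225 to 3743 CPM in wild-type tumours. All 5 had a negative log2 fold change, with 0 called and a median of -0.45, beside 0.03 over all genes tested. Transcripts of intestinal epithelium were found in labelled-deleted tumour 2. A list of 6 such genes summed to 1826 CPM there, against 34.3 to 95.1 CPM in the other tumours labelled deleted and 81.6 to 122 CPM in wild-type tumours. CPM are read counts on 1 common scale of library size. Apoa4, a lipid carrier made by enterocytes, was at 897 CPM in that tumour and at most 4.72 CPM in any other. Labelled-deleted tumour 3 and wild-type tumour 3 held the most B-cell transcripts. A list of 21 B-cell genes summed to 771 and 378 CPM in these, against 80.3 to 177 CPM in the other tumours labelled deleted and 113 to 185 CPM in the other wild-type tumours. The same pair led a list of 5 lymph node stroma genes, with 288 and 113 CPM. These summed to 24.6 to 99.4 CPM in the other tumours labelled deleted and 9.38 to 71.5 CPM in the other wild-type tumours. The pair held 63.3 and 17.4 CPM of Glycam1, a mucin-like ligand made by high endothelial venules, against at most 6.51 CPM elsewhere. Wild-type tumour 3 was below labelled-deleted tumour 5 in Ccl21a (70.8 against 76.8 CPM) and below wild-type tumour 1 in Madcam1 (8.34 against 9.04 CPM). Cr2 belongs to both the B-cell and the stroma list. The part of this tissue content in the immunoglobulin values was not tested.

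Immunoglobulin RNA varied widely among the tumours of both groups. The 166 genes summed to 524, 2293, 3090, 219 and 831 CPM in labelled-deleted tumours 1 to 5, which averaged 1391 ± 1239 CPM (SD, n = 5). They summed to 575, 145, 1053, 97.8 and 80.3 CPM in wild-type tumours 1 to 5, which averaged 390 ± 423 CPM (SD, n = 5). The highest tumour, labelled-deleted 3, held 38.5 times as much as the lowest, wild-type 5. The 3 lowest tumours were all wild-type, while wild-type tumours 1 and 3 stood above labelled-deleted tumours 1 and 4, so the groups overlapped. With tumour 3 of both groups left out, the means were 967 CPM in tumours labelled deleted and 225 CPM in wild-type tumours. Constant genes held most of the reads: the 7 heavy chain constant genes summed to 137 to 1834 CPM in tumours labelled deleted and 51.3 to 623 CPM in wild-type tumours, against 13.2 to 198 CPM and 4.84 to 72.3 CPM for the 79 heavy V genes.

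**Figure D1:**
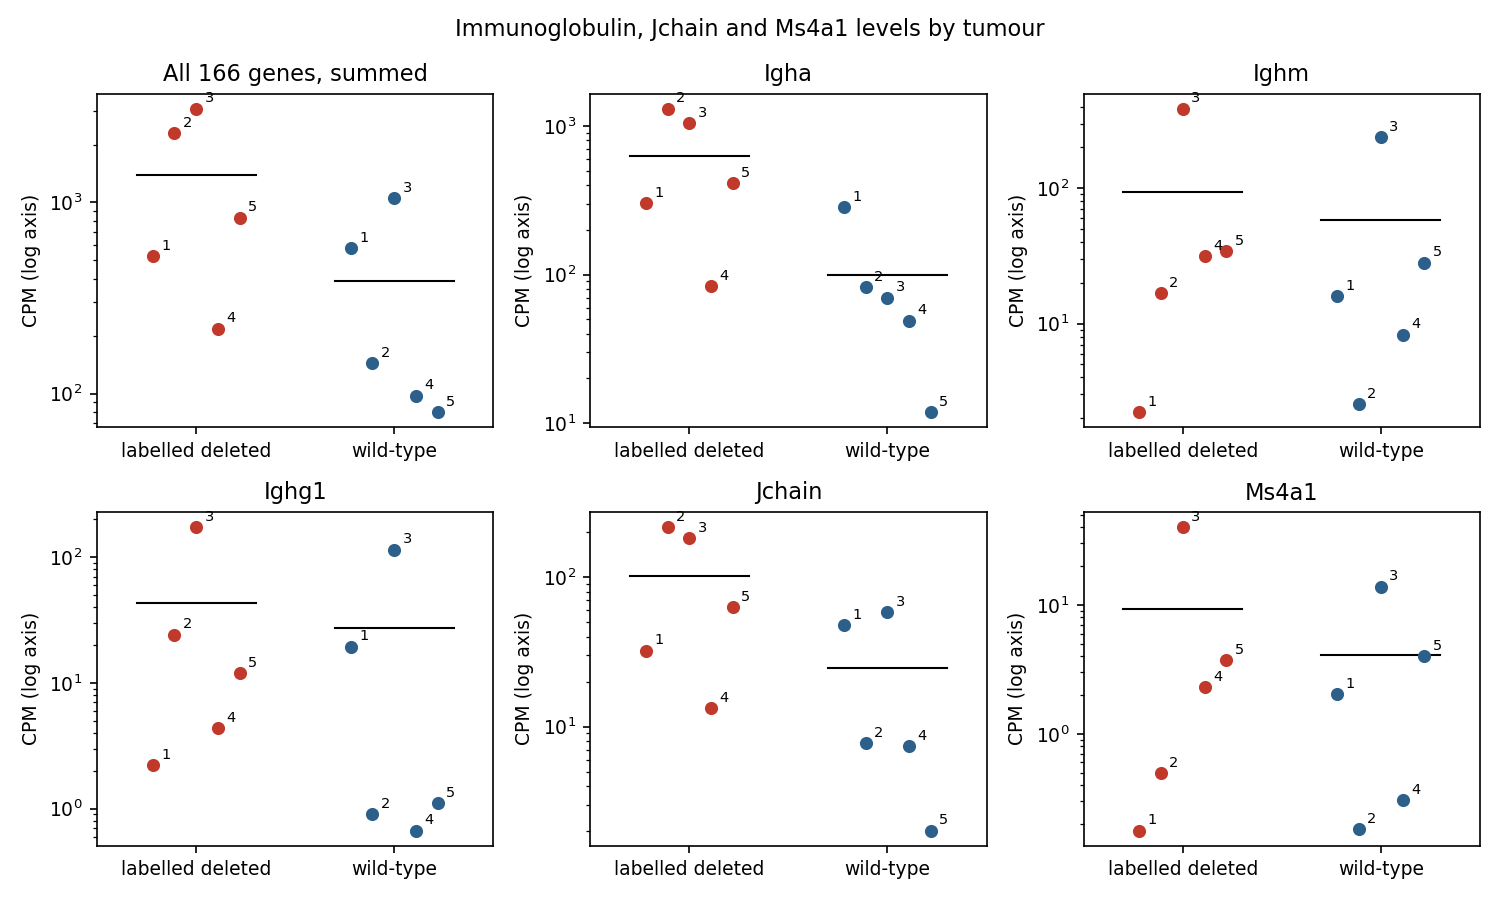
Each point is 1 tumour, numbered as in its label, and the vertical log axes give CPM for the summed immunoglobulin genes, Igha, Ighm, Ighg1, Jchain and Ms4a1. Horizontal lines mark group means (n = 5); tumour 3 stands highest for Ighm, Ighg1 and Ms4a1 in both groups, while Igha is highest in labelled-deleted tumour 2 at 1309 CPM.

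Igha, the constant gene of IgA (chr12:113254830-113260236, minus strand), was the most abundant gene of the set by summed count and had the smallest p of the constant genes. It stood at 303, 1309, 1043, 84.1 and 412 CPM in labelled-deleted tumours 1 to 5. In wild-type tumours 1 to 5 it stood at 286, 82.4, 69.9, 49.0 and 11.9 CPM. Labelled-deleted tumour 4 alone fell below wild-type tumour 1, and the other labelled-deleted tumours stood above all wild-type tumours. The means were 630 ± 521 CPM in tumours labelled deleted and 99.8 ± 107 CPM in wild-type tumours (SD, n = 5 each). The log2 fold change was 2.66 (SE 0.89) and did not pass the threshold (edgeR quasi-likelihood test, unadjusted p = 0.0131, adjusted p = 0.759). It lay between 2.21, without labelled-deleted tumour 2, and 3.56 when each tumour was left out in turn. Labelled-deleted tumours 2 and 3, the highest in Igha, had Apoa4 at 897 and 0 CPM. Their lymph node stroma genes summed to 49.5 and 288 CPM. The part of either tissue in the Igha level was not tested.

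Igkc, the constant gene of most mouse light chains (chr6:70726435-70726966, plus strand), stood at 96.7, 429, 662, 45.6 and 146 CPM in labelled-deleted tumours 1 to 5. It stood at 118, 30.3, 213, 17.9 and 11.7 CPM in wild-type tumours 1 to 5. Labelled-deleted tumours 2 and 3 were the highest and wild-type tumours 4 and 5 the lowest, with the rest interleaved. The log2 fold change was 1.82 (SE 0.94, adjusted p = 0.759 in the same test), and it was 1.17 without labelled-deleted tumour 3 and 2.63 without wild-type tumour 3, the extremes when each tumour was left out in turn.

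Ighm, the constant gene of IgM (chr12:113418558-113422730, minus strand), followed another order. It stood at 2.22, 16.7, 386, 31.7 and 34.1 CPM in labelled-deleted tumours 1 to 5, and at 15.96, 2.55, 238, 8.30 and 28.1 CPM in wild-type tumours 1 to 5. Tumour 3 stood far above the rest in each group, and the groups overlapped throughout. The log2 fold change of 0.68 (SE 1.38, adjusted p = 0.907, edgeR) turned to -1.48 without labelled-deleted tumour 3. Ighd, the constant gene of IgD, was likewise highest in that tumour at 82.4 CPM and was at 0 in labelled-deleted tumour 1. Its log2 fold change of 1.24 (SE 1.497) became -0.91 without labelled-deleted tumour 3.

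The IgG constant genes were also concentrated in tumour 3 of each group. Ighg2c, the IgG2c gene of C57BL/6 mice, stood at 6.58, 0.92, 56.0, 3.47 and 0.66 CPM in labelled-deleted tumours 1 to 5. It stood at 1.02, 0.09, 124, 0.31 and 0.40 CPM in wild-type tumours 1 to 5. Wild-type tumour 3 was thus the highest of all, and every other wild-type tumour lay at about 1 CPM or less. The log2 fold change of -0.90 (SE 1.79, adjusted p = 0.905, edgeR) became 4.85 without wild-type tumour 3 and 2.63 without tumour 3 of both groups. Ighg1 reached 173 CPM in labelled-deleted tumour 3 and 115 CPM in wild-type tumour 3, against 2.22 to 24.3 CPM in the other tumours labelled deleted and 0.67 to 19.4 CPM in the other wild-type tumours. Its log2 fold change of 0.65 (SE 1.51), and that of Ighg2b, 0.82 (SE 1.15), turned to -1.38 and -0.54 without labelled-deleted tumour 3. Ighg3 had too few counts to be tested, with 19.9 and 8.75 CPM in tumour 3 of the labelled-deleted and wild-type groups and at most 3.35 CPM elsewhere. The reads of the IgG genes are less certain than those of Igha, since Ighg2b and Ighg2c were 86.2% identical over their transcripts, although no constant gene held a fractional estimated count.

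Isotype make-up was read per kilobase of annotated exon, so that genes of unlike length could be set side by side. Igha took 93.2%, 95.5%, 49.9%, 53.5% and 81.3% of the heavy chain constant signal in labelled-deleted tumours 1 to 5. It took 80.5%, 92.6%, 8.10%, 75.5% and 17.8% in wild-type tumours 1 to 5. Igha therefore led in 8 of the 10 tumours, with 74.7% ± 21.7 in tumours labelled deleted and 54.9% ± 38.96 in wild-type tumours (SD, n = 5 each), a difference well within the spread. Ighm led in the other two, wild-type tumours 3 and 5. In wild-type tumour 3 it took 39.06%, with Ighg2c second at 28.9% and all 4 Ighg genes together at 48.1%. In wild-type tumour 5 it took 59.4%, with Ighd second at 18.4% and the Ighg genes at 4.44%. Elsewhere the Ighg genes took 2.69% to 18.4% in tumours labelled deleted and 2.90% to 11.5% in wild-type tumours.

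These shares rest on unequal depth. Wild-type tumour 5 had only 509 heavy chain constant reads, of which 118 were Igha, or 23.2% (95% exact binomial interval 19.6% to 27.1%) before scaling for length. Wild-type tumour 3 had 847 Igha reads of 7547, or 11.2% (10.5% to 12.0%), and labelled-deleted tumour 2 had 18448 of 19189, or 96.1% (95.9% to 96.4%). Such intervals cover counting error only, because amplified reads without molecular identifiers are not independent molecules. Igha and Ighm kept the lead in the same tumours when shares were taken from counts and when the shortest transcript set the length, an alternative chosen after seeing the data. The ratio of Ighm to Igha per kilobase was 0.0104 to 0.533 in tumours labelled deleted and 0.0438 to 4.82 in wild-type tumours.

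**Figure D2:**
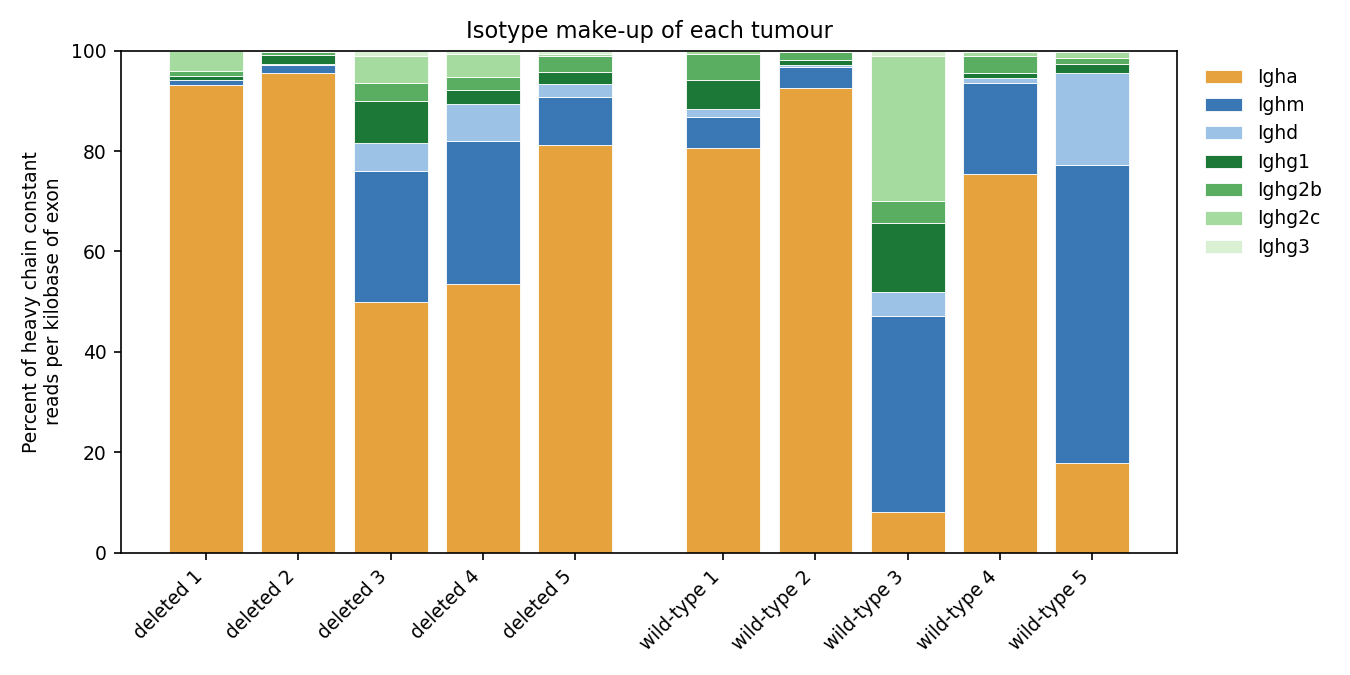
Stacked bars give the percent of heavy chain constant reads per kilobase of exon taken by each isotype gene, with 1 bar per tumour and the 5 tumours labelled deleted on the left. Igha takes the largest share in 8 tumours, from 49.9% to 95.5%, and Ighm leads in wild-type tumours 3 and 5 at 39.06% and 59.4%.

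Lambda light chains were a minor share, as is usual in mice. Per kilobase, the 3 lambda constant genes took 3.08%, 6.21%, 6.41%, 6.71% and 7.67% of the light chain constant signal in labelled-deleted tumours 1 to 5. They took 5.49%, 3.40%, 7.51%, 1.96% and 19.9% in wild-type tumours 1 to 5. Wild-type tumour 5 stood apart, but with 30 lambda reads among 146 (20.5% of counts, 95% exact binomial interval 14.3% to 28.02%). Its interval lay above that of labelled-deleted tumour 3, where 533 of 8594 reads were lambda (6.20%, 5.70% to 6.73%). Iglc1 made up 90.8% of the lambda constant signal in labelled-deleted tumour 2 and 16.3% in wild-type tumour 5, where Iglc2 led with 63.3%. Iglc2 and Iglc3 were 94.1% identical over their transcripts, so reads could move between them, although neither held a fractional estimated count. Iglv1 held 94.7% of all lambda V reads pooled over the tumours, with Iglv3 at 3.59% and Iglv2 at 1.75%. By tumour, Iglv1 took 84.2% to 99.4% where the label was deleted and 55.6% to 100% where it was wild-type. In wild-type tumour 1 Iglv3 took 27.1%, and the 55.6% of wild-type tumour 5 rests on 5 Iglv1 reads. Iglv1 and Iglv2 were 97.0% identical over the V exon.

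Heavy chain V use differed from tumour to tumour. The most read Ighv gene was Ighv1-34 (7.29% of Ighv reads), Ighv1-26 (10.03%), Ighv1-15 (7.58%), Ighv1-64 (12.1%) and Ighv1-82 (9.92%) in labelled-deleted tumours 1 to 5. It was Ighv14-2 (12.2%), Ighv1-64 (17.2%), Ighv1-69 (22.9%), Ighv1-5 (37.2%) and Ighv1-64 (10.4%) in wild-type tumours 1 to 5. The 10 tumours thus had 8 different leading Ighv genes. In wild-type tumour 4, Ighv1-5 had 48 of 129 Ighv reads (95% exact interval 28.9% to 46.2%), while in every other tumour it took at most 1.11%. In wild-type tumour 3, Ighv1-69 had 200 of 875 reads (20.1% to 25.8%), against at most 2.08% elsewhere. Wild-type tumour 3 also gave 8.57% of its Ighv reads to Ighv11-2, a V gene known from B-1 cells and named here after its values were seen, which took at most 3.24% in any other tumour.

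Kappa V use had the same pair of tumours in front. Igkv1-117 took 81 of 170 Igkv reads in wild-type tumour 4, or 47.6% (39.9% to 55.4%), against 3.82% to 10.9% in tumours labelled deleted and 1.20% to 8.24% in the other wild-type tumours. Igkv4-53 took 486 of 1416 reads in wild-type tumour 3, or 34.3% (31.8% to 36.9%), and at most 1.64% in any other tumour. In the remaining tumours the leader took 10.99% to 15.02% of the Igkv reads where the label was deleted and 9.86% to 12.6% where it was wild-type. Their leaders were Igkv1-110, Igkv4-86, Igkv8-21, Igkv8-28 and Igkv6-23 in labelled-deleted tumours 1 to 5, and Igkv4-72, Igkv1-110 and Igkv1-135 in wild-type tumours 1, 2 and 5. Igkv1-117 and Igkv1-110, the close pair shown above, both had reads in all 10 tumours. Their estimated counts were partly fractional, whereas those of Ighv1-5 and Igkv4-53 were whole in every tumour.

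**Figure D3:**
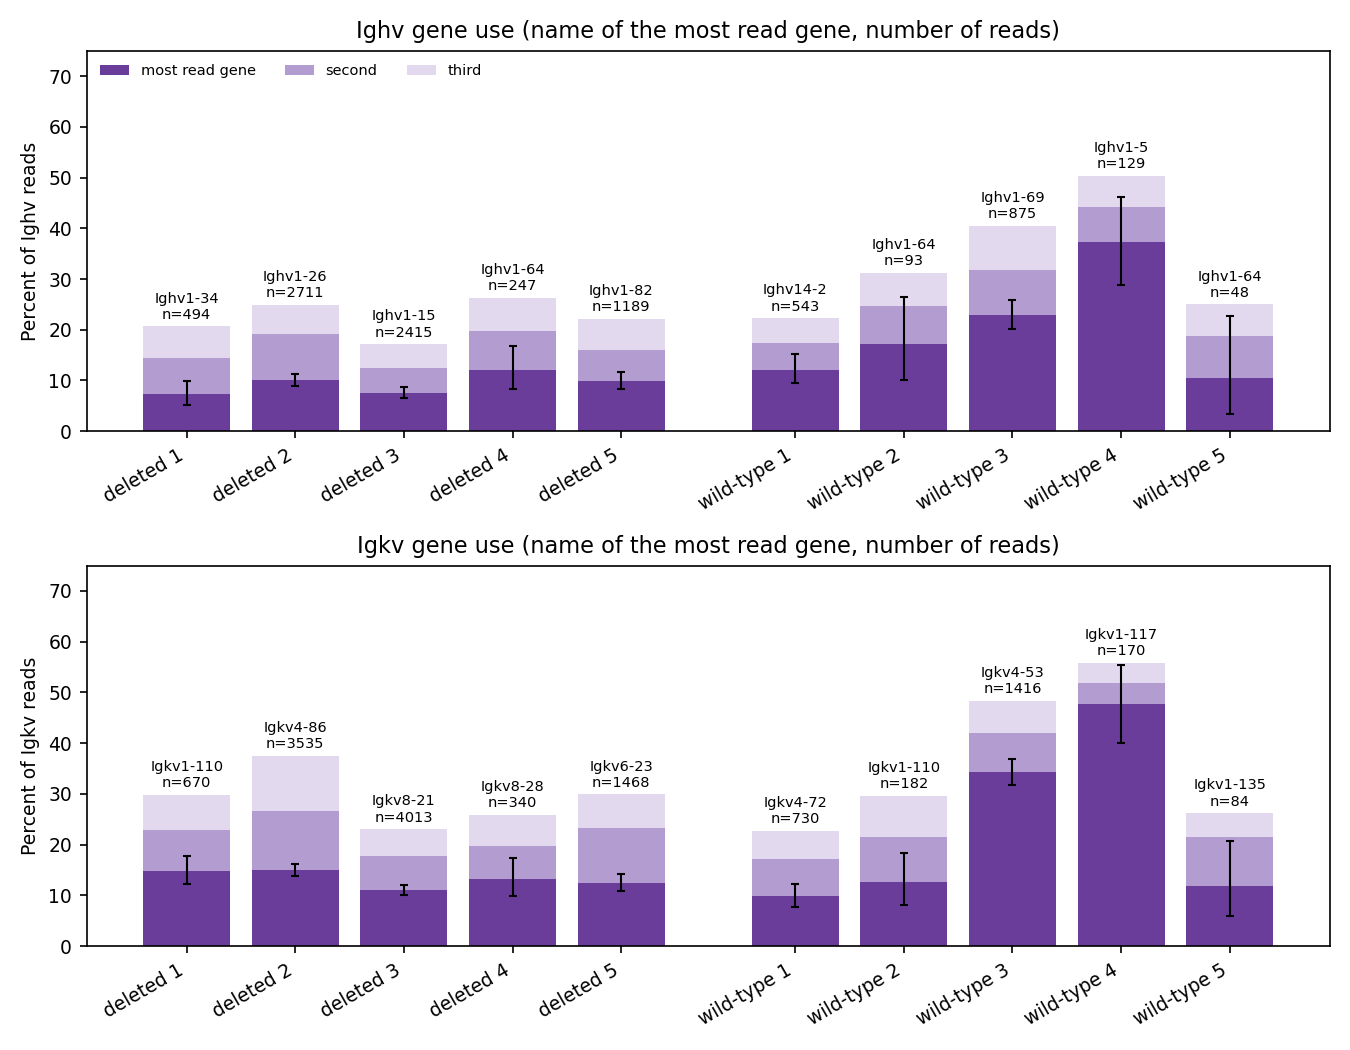
Bars give the percent of Ighv reads (top) and Igkv reads (bottom) taken by the 3 most read V genes of each tumour, with the leading gene and the number of reads written above and 95% exact binomial intervals on the leading share. Wild-type tumours 3 and 4 carry the tallest leading bars at both loci, 22.9% and 37.2% for Ighv and 34.3% and 47.6% for Igkv.

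The spread of reads over V genes was summarised as an effective number of genes, the inverse of the chance that 2 reads drawn without replacement come from the same gene. This form corrects for the number of reads and can exceed the number of genes seen when reads are few. For Ighv it was 32.5, 24.9, 37.3, 24.8 and 28.8 in labelled-deleted tumours 1 to 5, and 29.0, 18.9, 11.1, 6.56 and 37.6 in wild-type tumours 1 to 5. For Igkv it was 20.98, 15.9, 27.2, 24.9 and 21.2 in labelled-deleted tumours and 27.6, 19.7, 7.05, 4.23 and 29.5 in wild-type tumours. Wild-type tumours 3 and 4 were lowest at both loci, and wild-type tumour 2 also lay below all tumours labelled deleted for Ighv. The value of wild-type tumour 5 rests on 48 Ighv reads over 30 genes. As the plain inverse of the summed squared shares, chosen after seeing the data, it was 21.3, below the 22.6 to 36.8 of tumours labelled deleted, and wild-type tumours 3 and 4 were again lowest at 11.02 and 6.29. Brought to 48 Ighv reads each, tumours labelled deleted were expected to show 25.7 to 29.5 genes, and wild-type tumours 18.5 to 30 genes, with wild-type tumours 3 and 4 lowest at 18.5 and 20.01.

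Beneath these differences lay shared use. Reads of 6 Ighv and 15 Igkv genes were found in all 10 tumours. These numbers depend on depth, since wild-type tumour 5 had only 48 Ighv and 84 Igkv reads. In all 5 tumours labelled deleted, 44 Ighv and 47 Igkv genes had reads, against 7 and 15 in all 5 wild-type tumours. Depth differed here too, so this gap is not read as a difference in V use. Tumours labelled deleted had 247 to 2711 Ighv and 340 to 4013 Igkv reads. Wild-type tumours had 48 to 875 and 84 to 1416. The Ighv1 family, the largest of C57BL/6 mice and represented here by 42 genes, took 54.5% to 69.4% of Ighv reads in tumours labelled deleted and 50.5% to 80.6% in wild-type tumours. Ighv1-64 had the highest mean share over the 10 tumours at 6.84%, followed by Ighv1-26 at 5.25%, and Igkv1-117 had the highest mean of the kappa genes at 9.61%, with Igkv1-110 at 6.59% and Igkv10-96 at 6.03%. The mean of Igkv1-117 was carried by wild-type tumour 4: without that tumour it was 5.39%, against 6.87% for Igkv1-110 and 6.50% for Igkv10-96. Igkv10-96 ranged from 4.12% to 11.6% in tumours labelled deleted and from 1.77% to 8.24% in wild-type tumours. Of the Ighv genes, 54 never passed 5% of the reads of a tumour, and of the Igkv genes 58.

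The comparison of the groups asked which immunoglobulin genes differed between tumours labelled deleted and wild-type tumours. By mean CPM, 153 of the 166 genes were higher in tumours labelled deleted, against a background of 55.6% of the 23140 rows with a summed count of 10 or more. By median CPM, which a single tumour cannot carry, it was 153 of 166 again, against a background of 49.2%. With tumour 3 of both groups left out, 154 were higher by median, and with labelled-deleted tumours 1 and 2 left out, 144. The genes are read from the same tumours and move with their total immunoglobulin RNA, so these counts are not 166 separate observations. Labelled-deleted tumour 3 was the highest of all 10 for 81 genes and labelled-deleted tumour 2 for 50.

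No single gene passed the test. Fitted without a filter on low counts, 0 of the 166 genes had an adjusted p under 0.05 in edgeR's quasi-likelihood test, and 0 of 31660 rows did (0%). At an unadjusted p under 0.05, 73 immunoglobulin genes were higher and 0 lower in tumours labelled deleted, against a background of 3.15% of rows higher and 1.79% lower. The median log2 fold change was 2.12 over the 166 genes and 0.03 over all rows. The usual low-count filter left 39 of the 166 genes, which passed in part through their level in 1 group. Of these, 0 were called, 36 had a positive and 3 a negative log2 fold change, and 15 had an unadjusted p under 0.05. The background over 16565 genes was 0% called and 5.93% with an unadjusted p under 0.05 (3.47% higher, 2.46% lower). DESeq2 and limma-voom also called 0 immunoglobulin genes, where DESeq2 called 7 of all genes (0.0224%) and limma-voom 0. The median over the filtered genes, 1.84, fell to 1.12 without labelled-deleted tumour 3 and was 2.69 without wild-type tumour 3.

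**Figure D4:**
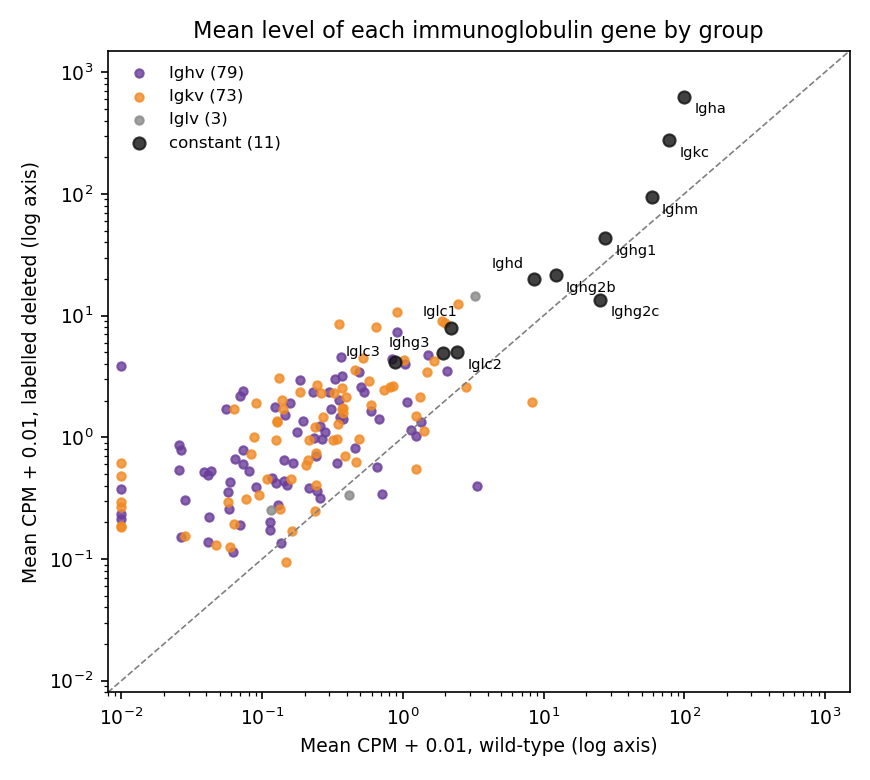
Each point is 1 of the 166 genes, with its mean CPM in tumours labelled deleted on the vertical log axis and in wild-type tumours on the horizontal log axis (0.01 added so that genes at 0 can be drawn; dashed line, equal means; n = 5 tumours each). Most points, 153 of 166, lie above the line, and the constant gene Ighg2c lies below it.

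The V genes with the smallest p were Igkv6-23, Ighv1-55, Igkv5-48 and Ighv1-26. Igkv6-23 stood at 1.96, 27.2, 11.1, 0.91 and 12.0 CPM in labelled-deleted tumours 1 to 5, and at 2.44, 0.91, 0.33, 0 and 0.81 CPM in wild-type tumours 1 to 5. Wild-type tumour 1 lay within the labelled-deleted range, as did wild-type tumour 2 by a small margin. The log2 fold change was 3.57 (SE 1.07, unadjusted p = 0.00745, adjusted p = 0.759, edgeR). Ighv1-55, Igkv5-48 and Ighv1-26 had log2 fold changes of 2.79 (SE 0.85), 2.79 (SE 0.85) and 3.02 (SE 0.94), with the same adjusted p. All 4 stayed positive when each tumour was left out in turn. In the opposite direction stood genes carried by 1 tumour: Igkv4-53 was at 40.13 CPM in wild-type tumour 3, against 0.16 to 5.25 CPM in tumours labelled deleted and 0 to 0.94 CPM in the other wild-type tumours.

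In 5 of the 166 genes every tumour labelled deleted stood above every wild-type tumour, and in 0 every one stood below. Over all rows with a summed count of 10 or more, 0.441% stood above and 0.38% below. The 5 were Igkv12-89, Igkv8-24, Ighv2-3, Ighv2-5 and Ighv1-71, named after their values were seen, and none of them passed the low-count filter. Igkv12-89, Ighv2-5 and Ighv1-71 were at 0 in all wild-type tumours, but their summed counts were only 12, 25.1 and 13.7. They reached the summed count of 10 that defined the set through tumours labelled deleted alone, so they are no support for a difference. Igkv8-24 had the most, with a summed count of 137, and stood at 0.62, 0.35, 6.98, 0.32 and 1.71 CPM in labelled-deleted tumours 1 to 5 and at 0.31, 0, 0.17, 0.06 and 0.10 CPM in wild-type tumours.

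The constant genes were set beside partner genes of antibody secretion and of B cells. Jchain, the joining chain that links IgA and IgM into polymers and is made by plasma cells, stood at 32.2, 216, 182, 13.3 and 63.0 CPM in labelled-deleted tumours 1 to 5. It stood at 47.8, 7.74, 58.4, 7.38 and 2.02 CPM in wild-type tumours 1 to 5, with a log2 fold change of 2.03 (SE 0.97, adjusted p = 0.759, edgeR). Labelled-deleted tumours 2 and 3 were again the highest and wild-type tumours 2, 4 and 5 the lowest, with overlap between. Ms4a1, which encodes the B-cell surface protein CD20, stood at 0.18, 0.50, 40.14, 2.30 and 3.75 CPM in labelled-deleted tumours and at 2.04, 0.18, 13.9, 0.31 and 4.03 CPM in wild-type tumours. Its log2 fold change of 1.19 (SE 1.39, adjusted p = 0.830, edgeR) turned to -1.27 without labelled-deleted tumour 3.

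Over the 10 tumours, Igha followed Jchain and Ighm followed Ms4a1. For log2 CPM of Igha and Jchain, Pearson's r was 0.92 (permutation p = 0.00031, adjusted over 15 relations 0.00155), Spearman's rho was 0.87 (permutation p = 0.00202, adjusted 0.0101), and r was 0.82 without labelled-deleted tumour 2 and wild-type tumour 5. For Ighm and Ms4a1, r was 0.96 (permutation p = 4e-05, adjusted 0.0003), rho was 0.95 (permutation p = 0.00012, adjusted 0.0009), and r was 0.92 without labelled-deleted tumours 1 and 3. Crossed the other way, r was 0.10 for Igha with Ms4a1 (permutation p = 0.788) and 0.43 for Ighm with Jchain (permutation p = 0.217). Without the 2 tumours farthest from the median of the partner gene, these were -0.20 and 0.72, so that Ighm came close to Igha in its relation to Jchain. The difference between these coefficients was not tested. Igkc followed Jchain (r 0.98, permutation p = 3e-05, adjusted 0.0003; rho 0.98, permutation p = 4e-05, adjusted 0.0006), with r again 0.98 without labelled-deleted tumour 2 and wild-type tumour 5. Ighg2b followed Jchain (r 0.86, permutation p = 0.00192, adjusted 0.0072; rho 0.82, permutation p = 0.00595, adjusted 0.0223), with r 0.93 without the same tumours. The other 11 relations missed an adjusted p of 0.05 for r. A group of 5 tumours is too small for a coefficient of its own.

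**Figure D5:**
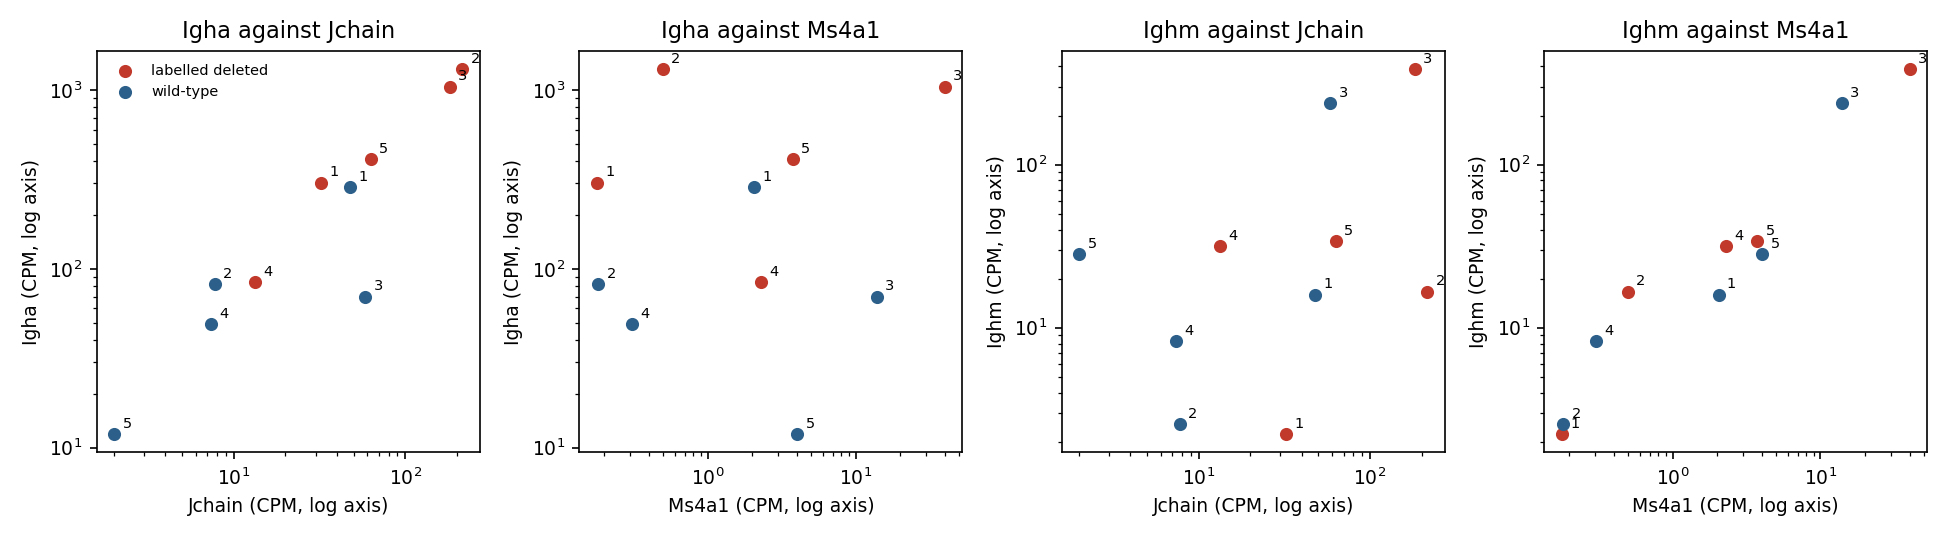
Each panel sets Igha or Ighm (vertical log axis, CPM) against Jchain or Ms4a1 (horizontal log axis, CPM), with 1 numbered point per tumour coloured by group. The coefficient of log2 CPM was 0.92 for Igha with Jchain, 0.10 for Igha with Ms4a1, 0.43 for Ighm with Jchain (0.72 without labelled-deleted tumour 2 and wild-type tumour 5) and 0.96 for Ighm with Ms4a1.

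The other genes of the antibody pathway were read from lists. Of 15 plasma cell genes 13 were tested, 8 with a positive and 5 with a negative log2 fold change, 0 were called, and the median was 0.09 beside 0.03 over all genes tested. The lowest were Irf4 at -0.62 (SE 0.66) and Tnfrsf13b at -0.61 (SE 0.42). Sdc1, the syndecan used to mark plasma cells, is shared with epithelium. It stood at 376 to 674 CPM in tumours labelled deleted and 577 to 733 CPM in wild-type tumours. In all libraries this was far above Mzb1, a chaperone of immunoglobulin assembly, at 0.64 to 11.6 CPM and 0.10 to 9.33 CPM. The part of epithelium in the values of this list was not tested. The log2 fold change of Mzb1 was 0.68 (SE 1.08), and -0.30 without labelled-deleted tumour 3. Tnfrsf17, the plasma cell receptor BCMA, was at 0 in labelled-deleted tumours 1, 2 and 4 and in wild-type tumours 2 and 4. Of 21 B-cell genes 19 were tested, 16 with a positive and 3 with a negative log2 fold change, 0 were called, and the median was 1.12. The B-cell receptor component Cd79a stood at 81.6 CPM in labelled-deleted tumour 3, against 0.71 to 7.58 CPM in the others of its label, and at 27.8 CPM in wild-type tumour 3, against 0.31 to 8.77 CPM. Its log2 fold change of 1.22 (SE 1.37) became -1.001 without labelled-deleted tumour 3.

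Genes of antibody gene rearrangement were at or near 0. The 6 genes for recombination and the surrogate light chain summed to at most 1.23 CPM in tumours labelled deleted and 0.67 CPM in wild-type tumours, and 0 had enough counts to be tested. Rag1, a subunit of the recombinase, was at 0 in 9 tumours and at 0.08 CPM in wild-type tumour 3, and Rag2 was at 0 throughout.

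Receptors that bind or carry antibodies had mostly negative log2 fold changes. Of 10 such genes 7 were tested, 1 with a positive and 6 with a negative log2 fold change, with 0 called and a median of -0.43. Fcgr3, an activating receptor for IgG on macrophages and natural killer cells, averaged 143 ± 33.9 CPM in tumours labelled deleted and 222 ± 53.7 CPM in wild-type tumours (SD, n = 5 each; log2 fold change -0.63, SE 0.20, unadjusted p = 0.0104, adjusted p = 0.759, edgeR). The inhibitory receptor Fcgr2b and the shared signalling chain Fcer1g had log2 fold changes of -0.74 (SE 0.28) and -0.54 (SE 0.19), with the same adjusted p. Pigr, the receptor that carries polymeric IgA across epithelium, stood at 22.1, 791, 23.6, 11.9 and 33.9 CPM in labelled-deleted tumours 1 to 5 and at 35.3, 13.8, 20.3, 29.6 and 107 CPM in wild-type tumours 1 to 5. The highest value belonged to labelled-deleted tumour 2, the tumour with intestinal transcripts, and without it the log2 fold change of 2.10 (SE 1.21) became -0.85. Labelled-deleted tumour 3, second in Igha, lay among the wild-type tumours in Pigr.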

How the data were processed

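PolyA RNA of 10 tumours was sequenced on an Illumina NovaSeq, with KAPA mRNA HyperPrep libraries, as the labels' protocols state. The authors deposited 1 table of estimated counts per gene, with HISAT2 2.2.1, RSEM 1.3.3 and DESeq2 1.32.0 named and mm10 as build, per the submitters' processing notes. The sources used here give neither the annotation release nor the strand setting. An estimated count shares reads between like genes: 54 V genes and 0 constant genes of the set held a value that was not whole. The authors also deposited normalized values on a log2 scale per tumour, whose transformation is not named, used as 1 alternative.

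Groups came from the sample titles. Estimated counts were rounded. Genes passing filterByExpr (minimum count 10) were fitted over the whole table with edgeR 4.0.16 (TMM scaling, robust quasi-likelihood F test, Benjamini-Hochberg threshold 0.05) in R 4.3.3. A log2 fold change is labelled deleted over wild-type, its standard error (SE) comes from the F statistic, and 2 is the prior count of log2 CPM. Depth was 10159891 to 18571519 counts per tumour, and the spread between tumours (common biological coefficient of variation 0.355) limited precision. Isotype shares used exon lengths of GENCODE M21, to which all 166 genes matched. Shares of V genes have exact binomial (Clopper-Pearson) intervals from scipy 1.17.1, and correlations used 100000 permutations, two-sided. Sequence identity came from Biopython 1.88 alignments, and figures from matplotlib 3.10.9. The pipeline was tested on simulated data.

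Genes and lists were chosen with earlier results of these data known. Named were the constant genes, the V genes with the largest mean share (5 each for Ighv and Igkv, 2 for Iglv), the leading V gene of each tumour, the 4 tested genes of the set with the smallest p, and genes of the pathway lists. Alternatives were DESeq2 1.42.0, limma-voom (limma 3.58.1), other scaling, no filter, blocks by replicate and by the number in the title code, lengths, count limits and left-out tumours. V gene promoters and their octamer motif were not analysed here.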

Additional observations from a re-analysis of the deposited data

Results flagged for a closer look

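Values that stood far from the other 4 tumours of their group were found in 21 of 58 groups of 5 examined. Chance flags about 1 in 20 groups where values are normally distributed. The rule was applied to CPM, which were skewed, so the share flagged by chance here is not known. Genes of 1 tumour are also not independent. In labelled-deleted tumour 3, these were Ighm at 386 CPM (others 2.22 to 34.1), Ighg1 at 173 (2.22 to 24.3), Ighd at 82.4 (0 to 9.14), Ighg2b at 73.9 (3.29 to 16.4), Ighg2c at 56.0 (0.66 to 6.58), Iglc2 at 19.9 (0.53 to 2.04), Iglc3 at 16.1 (0.71 to 1.78), Ms4a1 at 40.14 (0.18 to 3.75) and Cd79a at 81.6 CPM (0.71 to 7.58).

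Wild-type tumour 3 stood apart for Ighm at 238 CPM (others 2.55 to 28.1), Ighg2c at 124 (0.09 to 1.02), Ighg1 at 115 (0.67 to 19.4), Iglv1 at 10.9 (0.43 to 3.38), Iglc1 at 8.42 (0.18 to 1.10), Ighv1-26 at 2.73 (0.12 to 0.86), Mzb1 at 9.33 (0.10 to 1.65) and Ms4a1 at 13.9 CPM (0.18 to 4.03). Wild-type tumour 1 stood apart for Igha at 286 CPM (11.9 to 82.4) and for Igkv5-48 at 0.86 CPM (0.08 to 0.27). Pigr stood apart in labelled-deleted tumour 2 at 791 CPM (11.9 to 33.9) and in wild-type tumour 5 at 107 CPM (13.8 to 35.3).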

How the results depend on the processing

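The number of immunoglobulin genes called was 0 under every alternative run. Over all genes DESeq2 called 7, where edgeR called 0. With the replicate number as a block 0 genes were called in all and 0 in the set. The replicate numbers did not pair the tumours, since the correlations of same-numbered tumours ran from -0.02 to 0.39. Not every tumour matched its own number best. The number after abmk in the title codes was partly shared across groups, and the titles do not say what it stands for. Labelled-deleted tumour 2 and wild-type tumour 1 held 36. Labelled-deleted tumour 3 and wild-type tumours 2 and 3 held 38, and labelled-deleted tumour 5 and wild-type tumours 4 and 5 held 40. Each of these labelled-deleted tumours correlated best with a wild-type tumour of its own code number. With the code number as a block, 0 genes of the set were called. Under the replicate block the log2 fold change of Ighg2c was 1.45 and that of Pigr -0.086. Ighg2c was also positive with limma-voom (1.56), a block by code number (0.056) and the deposited log2 values (0.56). It was 2.63 with tumour 3 of both groups left out, a setting chosen after seeing the data under which Iglc2 was -0.42. Pigr was -0.83 without labelled-deleted tumours 1 and 2. The mean effective number of Ighv genes in tumours labelled deleted was 23.8 when V genes with a summed count under 50 were left out, against 29.7. Without the correction for read number, chosen after seeing the data, it was 28.6, and 16.4 in wild-type tumours. The cause of these shifts was not tested, beyond the fewer genes or tumours used.

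Leaving out each tumour in turn, log2 fold changes ran from -3.15 to 4.85 for Ighg2c, -0.54 to 1.91 for Ighg2b, -1.38 to 2.96 for Ighg1, -1.48 to 2.78 for Ighm, -0.93 to 1.54 for Iglc2, -0.91 to 2.59 for Ighd, -0.30 to 2.46 for Mzb1, -1.27 to 2.53 for Ms4a1, -1.001 to 2.45 for Cd79a and -0.85 to 2.84 for Pigr. Depth limits the V gene shares of wild-type tumours 2, 4 and 5, which had 48 to 129 Ighv reads.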

Other observations

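Cues for B-cell survival and homing were also measured. Of 14 such genes 10 were tested, 7 with a positive and 3 with a negative log2 fold change, 0 were called, and the median was 0.54. Cxcl13, the chemokine that draws B cells into follicles, stood at 48.5 CPM in labelled-deleted tumour 3, against 2.31 to 8.70 CPM in the others of its label, and at 25.4 CPM in wild-type tumour 3, against 0.79 to 5.19 CPM in the other wild-type tumours. These are the tumours with the most Ighm, Ighg1 and Ms4a1. Ccl25, a chemokine of the small intestine and thymus, stood at 57.7 CPM in labelled-deleted tumour 2 and between 4.27 and 7.78 CPM in all others.

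All 8 T-cell genes were tested and had positive log2 fold changes, with 0 called and a median of 0.76. Of all genes tested, 55.1% had a positive log2 fold change. Single tumours stood high in this list. Cd3e was at 8.62 CPM in labelled-deleted tumour 3, against 0.09 to 3.16 CPM in the others of its label and 0 to 3.43 CPM in wild-type tumours. Trbc2 was at 45.1 CPM in labelled-deleted tumour 1, against 6.14 to 15.2 CPM and 4.74 to 9.29 CPM. Trbc1 was also highest there, at 11.3 CPM. The rest of the list went the other way in that tumour. Cd3e (0.09 CPM), Cd3d (0.09), Cd3g (0.53), Trac (0.18), Cd4 (1.07) and Cd8a (0.36) were each at their lowest of the label there. Acinar genes, whose 6 members summed to 84.6 to 11299 CPM in tumours labelled deleted and 24.8 to 15571 CPM in wild-type tumours, had log2 fold changes of both signs, with a median of -0.29.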
